A study of Mus musculus with 6 samples.

Results

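NADPH oxidase 2 is the enzyme with which phagocytes turn oxygen into superoxide. The transcripts of 7 of its subunits, Cybb, Cyba, Ncf1, Ncf4, Rac1, Rac2 and Rap1a, were followed across MDSC and DC cultures of mouse bone marrow. The genes were taken by name from the array annotation, which gave 15 probes of 56605 and 7 genes of the 21862 genes tested. RNA was measured on 6 one-colour arrays, 2 for each of 3 groups. 6G- BM-MDSC were grown for 4 days with 40 ng/mL GM-CSF in tissue culture-treated dishes from bone marrow from which Ly-6G+ cells, mostly neutrophils, had been removed with magnetic beads. MDSC (conv.) were grown in the same way from whole bone marrow. DCs were grown for 8 days with 20 ng/mL GM-CSF in dishes not treated for cell attachment. All marrow came from female C57BL/6J mice of 6 to 8 weeks, with no transgene in any group. From the labels it is not known whether the 2 arrays of a group come from different cultures or mice, so p rests on a spread between arrays that may be technical.

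The oxidase is assembled on demand. Its membrane part, a flavocytochrome, is made of gp91phox, which carries electrons from NADPH across the membrane to oxygen, and p22phox, which stabilises it. In resting cells the organiser p47phox and p40phox are held in the cytosol, and after stimulation they move to the flavocytochrome together with a Rac GTPase. Rap1a, another small GTPase, was found attached to the flavocytochrome in human neutrophils. Superoxide and the oxidants made from it kill ingested microbes, and in MDSCs, immature myeloid cells that restrain T cells, they belong to the known means of suppression.

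Probe sequences are shown for the subunits whose levels carry the comparison, since each value below is the brightness of such a probe. For probes that lie in a single stretch of the genome only the leading 30 of their 60 bases are given, from the 5′ end, and positions are those of the whole probe on mm9 as the files give them. The Cybb probe lies at chrX:9014314-9014373 (minus strand), the Ncf1 probe at chr5:134696380-134696439 (minus strand), the Ncf4 probe at chr15:78092903-78092962 (plus strand), the Rac1 probe at chr5:144267722-144267781 (minus strand) and the Rac2 probe at chr15:78391452-78391511 (minus strand).
Cybb, leading bases: tccagtctgtaagctgaaaaagaagaacac
Ncf1, leading bases: tttaaaaagagaggatatgcctccataaga
Ncf4, leading bases: tgatgtaagatgcaaacctcctggcccaga
Rac1, leading bases: gcgagccttcgcatttgatgccaagttttt
Rac2, leading bases: tcagaaaagcacagaacaaatctacttcag

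In the files, 3 further probes span more of the genome than their own 60 bases, so they cross exon junctions of spliced transcripts, and they are given whole. The Cyba probe covers chr8:124951180-124951590, a span of 411 bases. The Rap1a probes cover chr3:105534989-105540731 and chr3:105548841-105553172, spans of 5743 and 4332 bases, all on the minus strand of mm9.
Cyba, junction probe: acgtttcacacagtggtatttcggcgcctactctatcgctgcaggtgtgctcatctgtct
Rap1a, junction probe of the gene's own transcript: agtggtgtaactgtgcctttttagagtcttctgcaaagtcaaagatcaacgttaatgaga
Rap1a, junction probe whose target the files describe as a retrotransposed copy: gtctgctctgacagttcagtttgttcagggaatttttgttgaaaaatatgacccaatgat

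Levels are given as log2 of the processed intensity minus the 75th percentile of the same array, so that 0 is the level of a probe at that percentile and 1 unit is a 2-fold step. Levels of different probes are not compared, since probes differ in how well they bind. A gene is represented by its brightest probe. Differences are taken from 1 limma model over the 6 arrays. Their p is adjusted by Benjamini-Hochberg over the 21862 genes, with a threshold of 0.05, and SE is the standard error of a difference. The number of arrays, 2 a group, limits the precision. All 15 probes were well above background on all 6 arrays, and no spot was saturated. The arrays shared 1 slide and 1 scan, with both MDSC groups in array row 1 and DCs in row 2. Array row, culture time, GM-CSF dose and dish surface therefore cannot be told apart from the difference between MDSC and DCs.

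Against DCs, the transcripts of 4 phox subunits and of Rac2 were higher in both MDSC groups, while no difference was detected for Rac1 or Rap1a. Cybb, which encodes gp91phox, had the largest difference of the 7 genes, 2.69-fold in 6G- BM-MDSC and 2.74-fold in MDSC (conv.). The other called genes were 1.36-fold to 1.97-fold higher. For 6G- BM-MDSC, 5 of 7 genes rose relative to DCs and 0 fell, where 15.0% of all genes tested were higher and 17.8% lower. For MDSC (conv.), 5 of 7 genes rose relative to DCs and 0 fell, where 13.4% of all genes were higher and 15.8% lower. A t-test is among the tests that the study's methods name, though not for the arrays, and its Benjamini-Hochberg adjustment was added here. With this t-test after adjustment, 0 of these calls passed in either comparison (adjusted p = 0.0545 to 0.116 for the genes limma called). The median log2 difference over the 7 genes was 0.55 in 6G- BM-MDSC and 0.53 in MDSC (conv.), against -0.036 and -0.031 over all genes. Both comparisons share the DC arrays.

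**Figure D1:**
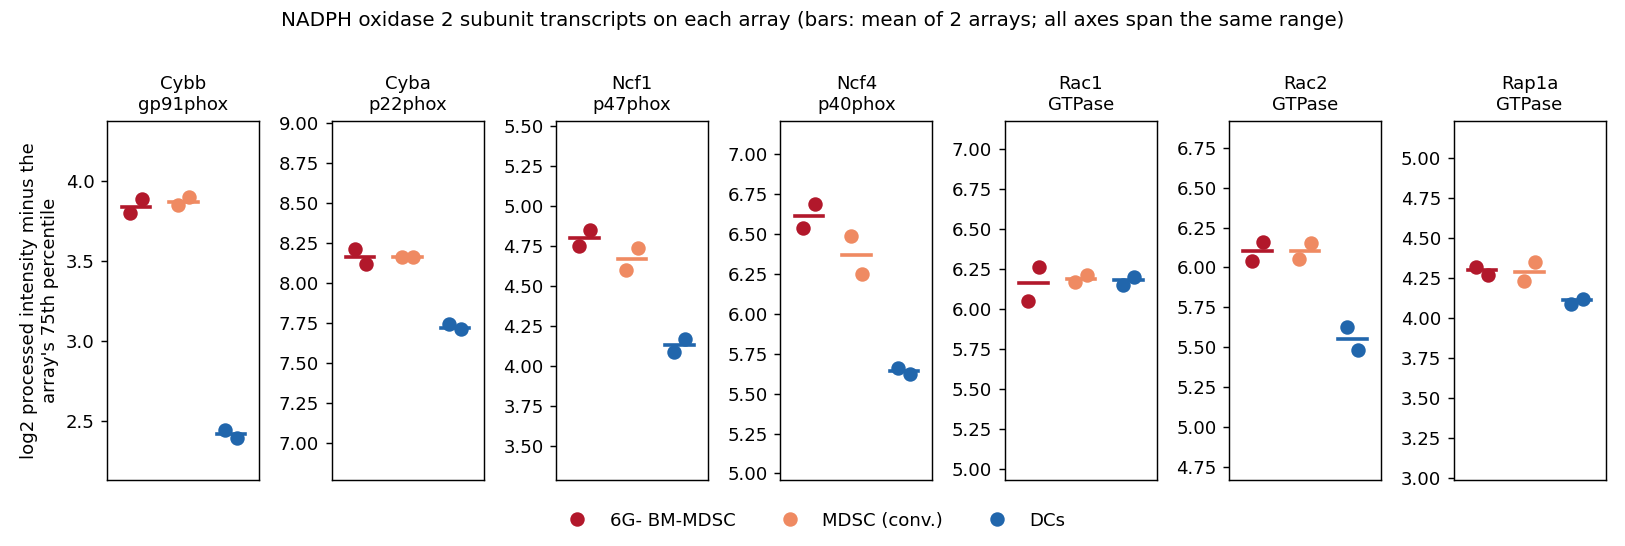
Level of each subunit transcript on each array (y axis, log2 processed intensity minus the array's 75th percentile), with 1 panel per gene and 6G- BM-MDSC, MDSC (conv.) and DCs from left to right; points are arrays, bars the mean of 2 arrays. Both DC arrays lie below all 4 MDSC arrays in every panel except that of Rac1, and the gap is widest for Cybb.

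The membrane subunits were both higher in MDSCs, but not by the same amount. Cybb stood at 3.80 and 3.89 in 6G- BM-MDSC, 3.85 and 3.90 in MDSC (conv.), and 2.44 and 2.39 in DCs. In processed intensity this was 8690 and 8294 in 6G- BM-MDSC, 9125 and 9372 in MDSC (conv.), and 3332 and 2978 in DCs. The 4 MDSC arrays lay within 0.10 of each other and more than 1 log2 unit above DCs. The difference from DCs was 1.43 (SE 0.08, adjusted p = 5.86e-04) in 6G- BM-MDSC and 1.46 (SE 0.08, adjusted p = 5.85e-04) in MDSC (conv.).

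Cyba, which encodes p22phox, stood at 8.21 and 8.12 in 6G- BM-MDSC, 8.16 and 8.16 in MDSC (conv.), and 7.74 and 7.71 in DCs. The groups of MDSCs overlapped each other, and neither overlapped DCs. The difference from DCs was 0.44 (SE 0.07) in both MDSC groups, with adjusted p = 0.0121 in 6G- BM-MDSC and 0.013 in MDSC (conv.). On the same array, which takes the scaling between arrays out, the log2 ratio of Cybb to Cyba was 0.90 and 1.07 in 6G- BM-MDSC and 0.99 and 1.04 in MDSC (conv.), relative to the mean of DCs, whose arrays were at 0.01 and -0.01. At the brightest probe of each gene, Cybb thus differed from DCs by about 1 log2 unit more than Cyba on all 4 MDSC arrays. The size of this gap depended on the probe. The dimmer probes of Cyba differed more from DCs, by 0.77 and 0.74 in 6G- BM-MDSC and 0.65 and 0.61 in MDSC (conv.), still less than Cybb.

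Of the cytosolic phox subunits, Ncf4 differed more than Ncf1. Ncf1 encodes p47phox, whose phosphorylation starts assembly, and stood at 4.75 and 4.85 in 6G- BM-MDSC, 4.60 and 4.74 in MDSC (conv.), and 4.09 and 4.17 in DCs. All 4 MDSC arrays were above both DC arrays, and the difference from DCs was 0.66 (SE 0.09, adjusted p = 0.00699) in 6G- BM-MDSC and 0.53 (SE 0.09, adjusted p = 0.0137) in MDSC (conv.). Ncf4 encodes p40phox, which binds a lipid of the phagosome membrane, and stood at 6.54 and 6.69 in 6G- BM-MDSC, 6.49 and 6.25 in MDSC (conv.), and 5.66 and 5.62 in DCs. Its order was 6G- BM-MDSC, MDSC (conv.) and DCs, without overlap at either step. The difference from DCs was 0.98 (SE 0.11, adjusted p = 0.00441) in 6G- BM-MDSC and 0.73 (SE 0.11, adjusted p = 0.0106) in MDSC (conv.), and only the steps down to DCs passed the test.

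The log2 ratio of Ncf4 to Ncf1 on the same array, relative to the mean of DCs, was 0.29 and 0.33 in 6G- BM-MDSC and 0.39 and 0.01 in MDSC (conv.), with DC arrays at 0.06 and -0.06. MDSC (conv.) replicate 2 therefore overlapped DCs in this ratio, and the other 3 MDSC arrays did not.

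Of the GTPases, Rac2 was higher in MDSCs than in DCs and Rac1 was not. Rac2 is the Rac of blood cells and serves the oxidase of neutrophils, whereas Rac1 is found in most cell types. Rac2 stood at 6.04 and 6.16 in 6G- BM-MDSC, 6.05 and 6.15 in MDSC (conv.), and 5.63 and 5.48 in DCs. The difference from DCs was 0.55 (SE 0.10, adjusted p = 0.0144) in 6G- BM-MDSC and 0.54 (SE 0.10, adjusted p = 0.0154) in MDSC (conv.), with no overlap. Rac1 stood at 6.05 and 6.26 in 6G- BM-MDSC, 6.17 and 6.21 in MDSC (conv.), and 6.15 and 6.20 in DCs. All 3 groups overlapped, and the difference from DCs was -0.02 (95% interval -0.27 to 0.23, adjusted p = 0.876) in 6G- BM-MDSC and 0.01 (95% interval -0.23 to 0.26, adjusted p = 0.934) in MDSC (conv.). The log2 ratio of Rac2 to Rac1, relative to the mean of DCs, was 0.61 and 0.52 in 6G- BM-MDSC and 0.50 and 0.56 in MDSC (conv.), above DC arrays at 0.10 and -0.10.

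Rap1a stood at 4.32 and 4.27 in 6G- BM-MDSC, 4.23 and 4.35 in MDSC (conv.), and 4.09 and 4.12 in DCs. The MDSC arrays lay above DCs without overlap, but the difference of 0.19 (95% interval -0.01 to 0.39, adjusted p = 0.123) in 6G- BM-MDSC and 0.18 (95% interval -0.02 to 0.39, adjusted p = 0.144) in MDSC (conv.) did not pass. In each comparison with DCs, 6 of the 7 genes did not overlap between groups, where 72.8% of all genes did not for 6G- BM-MDSC and 71.2% for MDSC (conv.). Absence of overlap was thus common over the whole array.

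**Figure D2:**
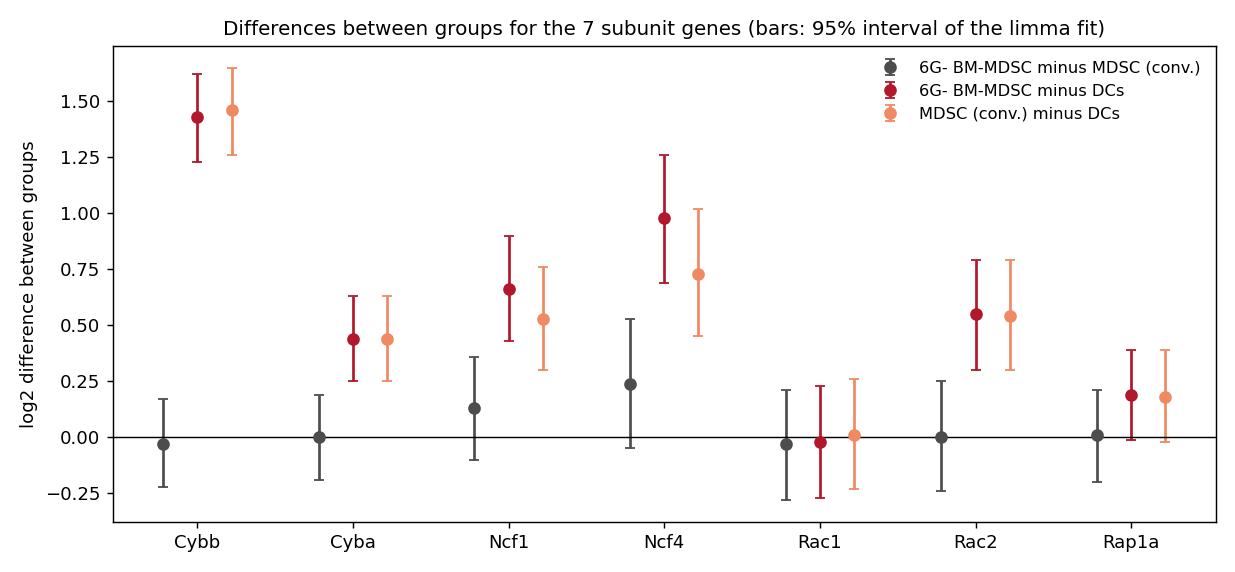
Log2 difference between groups (y axis) for each subunit gene, with 6G- BM-MDSC minus MDSC (conv.) in grey, 6G- BM-MDSC minus DCs in red and MDSC (conv.) minus DCs in orange; bars are the 95% interval of the limma fit. The red and orange points of Cybb lie at 1.43 and 1.46, every grey interval includes 0, and so do all intervals of Rac1 and Rap1a.

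The adjusted p of the smaller differences from DCs depended on single arrays. With 1 array of the compared groups left out, Cybb passed throughout, and so did Ncf1 and Ncf4 in 6G- BM-MDSC. The call for Cyba in MDSC (conv.) was lost without any 1 of the 4 arrays (adjusted p = 0.0569 without MDSC (conv.) replicate 1, 0.0651 without MDSC (conv.) replicate 2, 0.058 without DCs replicate 1 and 0.0668 without DCs replicate 2). In 6G- BM-MDSC it was lost without 6G- BM-MDSC replicate 1 (adjusted p = 0.0512), DCs replicate 1 (0.0547) and DCs replicate 2 (0.0612). The call for Rac2 in 6G- BM-MDSC was lost without 6G- BM-MDSC replicate 2 (adjusted p = 0.0679) or DCs replicate 2 (0.0654). In MDSC (conv.) the Rac2 call was lost without MDSC (conv.) replicate 1 (adjusted p = 0.0512), MDSC (conv.) replicate 2 (0.0813) or DCs replicate 2 (0.071). For Ncf1 in MDSC (conv.) this held without MDSC (conv.) replicate 2 (adjusted p = 0.069), DCs replicate 1 (0.0676) or DCs replicate 2 (0.0518), and for Ncf4 without DCs replicate 2 (0.0542). The count of genes higher in MDSC (conv.) was 3 without MDSC (conv.) replicate 1, 2 without MDSC (conv.) replicate 2, 3 without DCs replicate 1 and 1 without DCs replicate 2. That in 6G- BM-MDSC was 3 without DCs replicate 2.

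Between 6G- BM-MDSC and MDSC (conv.), no difference in a subunit transcript was detected. Of the 7 genes, 0 passed in limma and 0 had an unadjusted p under 0.05, where 0.0137% of all genes passed and 10.8% had an unadjusted p under 0.05. The t-test also called 0 after adjustment, as it did in both comparisons with DCs, so its count does not set this comparison apart. The differences of 6G- BM-MDSC from MDSC (conv.) ran from -0.03 to 0.24 with a median of 0.00. Ncf4 had the largest, 0.24 (SE 0.11, 95% interval -0.05 to 0.53, adjusted p = 0.515), followed by Ncf1 with 0.13 (95% interval -0.10 to 0.36, adjusted p = 0.641). For Cybb the difference was -0.03 (95% interval -0.22 to 0.17, adjusted p = 0.916), for Cyba 0.00 (95% interval -0.19 to 0.19) and for Rac2 0.00 (95% interval -0.24 to 0.25). The arrays of 2 genes, Ncf1 and Ncf4, did not overlap between these groups, where 44.2% of all genes did not. The dimmer probes of Ncf1 had the opposite sign, at -0.17 and -0.11 for 6G- BM-MDSC minus MDSC (conv.), and did not pass either.

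Of the 15 probes, 11 rose relative to DCs in 6G- BM-MDSC and 12 in MDSC (conv.), with 0 lower in either comparison. Over all 33484 probes tested, 15.0% were higher and 16.2% lower in 6G- BM-MDSC, and 13.4% were higher and 14.3% lower in MDSC (conv.). Between 6G- BM-MDSC and MDSC (conv.), 0 of the 15 passed and 0 had an unadjusted p under 0.05, where 0.00896% of all probes passed. Probes of a gene share its RNA and are not independent. The second probe of Cybb, at chrX:9013216-9013275 on mm9, differed from DCs by 1.61 (SE 0.10, adjusted p = 0.00104) in 6G- BM-MDSC and 1.47 (SE 0.10, adjusted p = 0.00135) in MDSC (conv.). It stood at 3.65 and 3.65 in 6G- BM-MDSC, 3.44 and 3.58 in MDSC (conv.), and 1.94 and 2.14 in DCs, without overlap with DCs. Its arrays did not overlap between both MDSC groups either, with 6G- BM-MDSC above MDSC (conv.), whereas those of the brightest probe did.

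The junction probe of Cyba stood at 6.30 and 6.36 in 6G- BM-MDSC, 6.20 and 6.21 in MDSC (conv.), and 5.57 and 5.54 in DCs. Its difference from DCs was 0.77 (SE 0.07, adjusted p = 0.00273) in 6G- BM-MDSC and 0.65 (SE 0.07, adjusted p = 0.00476) in MDSC (conv.), against 0.44 at the brightest Cyba probe. The dimmest probe of Cyba gave 0.74 and 0.61, in the same order. The 3 probes of Ncf1 gave 0.40 to 0.66 in 6G- BM-MDSC and 0.53 to 0.63 in MDSC (conv.), and each of these passed.

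The 4 probes of Rap1a did not give the same answer. The brightest passed in neither comparison. The junction probe of its own transcript, given above, stood at 2.69 and 2.80 in 6G- BM-MDSC, 2.88 and 2.90 in MDSC (conv.), and 2.51 and 2.61 in DCs. Its difference from DCs was 0.19 (SE 0.08, adjusted p = 0.148) in 6G- BM-MDSC and 0.33 (SE 0.08, adjusted p = 0.0422) in MDSC (conv.). The junction probe whose target is described as a copy gave 0.19 (SE 0.08, adjusted p = 0.13) in 6G- BM-MDSC and 0.37 (SE 0.08, adjusted p = 0.0267) in MDSC (conv.). Both junction probes thus passed against DCs in MDSC (conv.) alone. The annotated position of the latter probe lies near those of the other Rap1a probes. RNA of the copy and of the gene therefore cannot be told apart by it. The dimmest probe passed in 6G- BM-MDSC alone, with 0.44 (SE 0.10, adjusted p = 0.0266) in 6G- BM-MDSC and 0.25 (SE 0.10, adjusted p = 0.118) in MDSC (conv.). None of the 4 differed between 6G- BM-MDSC and MDSC (conv.) in the test (adjusted p from 0.499 to 0.982).

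**Figure D3:**
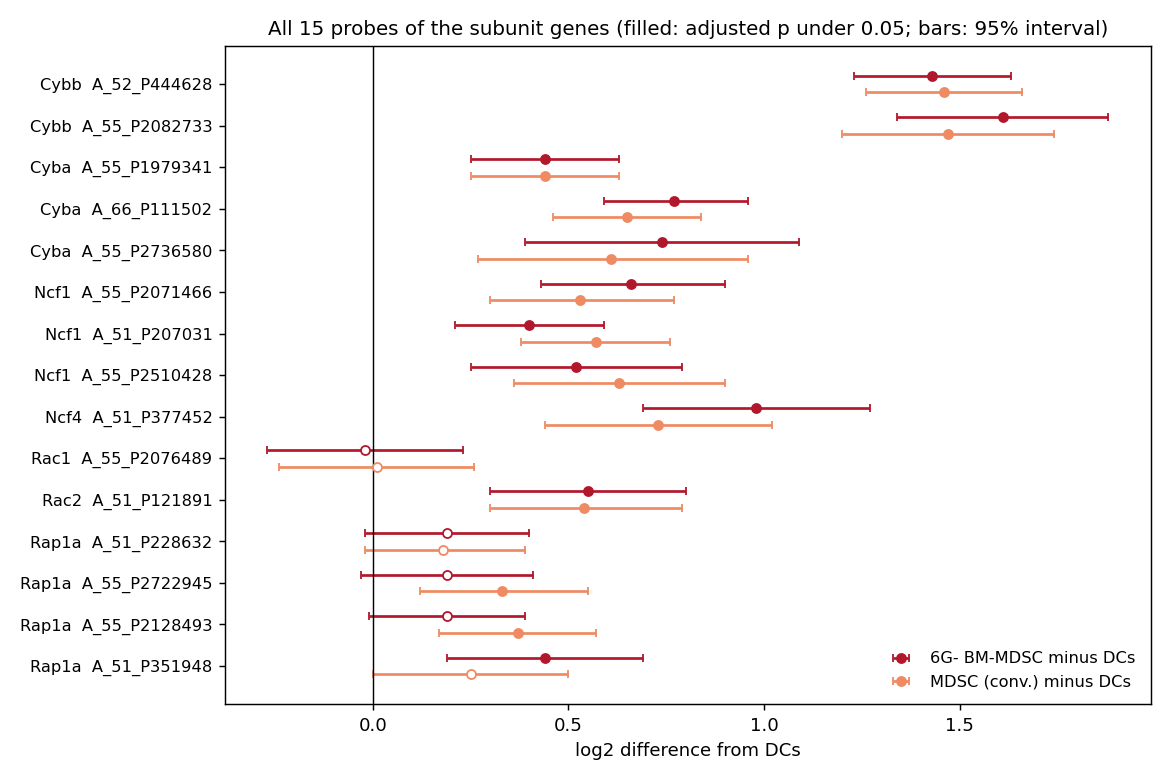
Log2 difference from DCs (x axis) for each of the 15 probes (rows), with 6G- BM-MDSC in red above MDSC (conv.) in orange; filled points have an adjusted p under 0.05 and bars are 95% intervals. The probes of Cybb lie farthest right at 1.43 to 1.61, and the 4 probes of Rap1a and the probe of Rac1 hold all the open points.

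Promoter sequence is shown for Cybb and Ncf1, whose transcripts moved in the same direction, because it held letters of binding motifs of myeloid transcription factors. RefSeq promoters (GRCm38.p6) were at hand for 3 of the 7 genes, Cybb, Cyba and Ncf1, and 5 motifs were searched on both strands of 300 bases. These were CCAAT, the PU.1-type GAGGAA, an ETS/IRF composite (GGAA, any 2 bases, then GAAA), an IRF-type motif (GAAA, any 2 bases, then GAAA) and the C/EBP-type TTGCNNAA. Of 32851 promoters of that length, 37.4% held CCAAT, 28.3% GAGGAA, 2.72% the composite, 3.44% the IRF-type and 10.8% the C/EBP-type motif. The stretches below run from 250 bases before the transcription start to 30 after it, on the minus strand, at chrX:9469295-9469574 for Cybb and chr5:134229596-134229875 for Ncf1, and capitals mark the matches.
Cybb: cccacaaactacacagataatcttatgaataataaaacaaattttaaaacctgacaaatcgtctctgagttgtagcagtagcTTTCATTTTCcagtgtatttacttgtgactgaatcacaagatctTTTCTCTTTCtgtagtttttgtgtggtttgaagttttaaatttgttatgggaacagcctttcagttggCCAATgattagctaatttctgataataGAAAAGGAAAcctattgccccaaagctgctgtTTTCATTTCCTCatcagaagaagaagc
Ncf1: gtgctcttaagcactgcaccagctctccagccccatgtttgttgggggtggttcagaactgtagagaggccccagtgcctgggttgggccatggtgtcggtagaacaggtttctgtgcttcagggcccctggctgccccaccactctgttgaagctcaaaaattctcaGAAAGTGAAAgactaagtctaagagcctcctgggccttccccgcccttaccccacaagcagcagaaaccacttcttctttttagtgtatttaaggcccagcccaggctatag

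Cybb held CCAAT from -56 to -52, counted from the start, and IRF-type matches from -168 to -159, from -124 to -115 and from -29 to -20. It also held the composite from 4 to 13 and GAGGAA from 10 to 15, which overlap. Both of these and the IRF-type matches from -168 to -159 and from -124 to -115 were on the strand opposite to the printed one. Ncf1 held 1 match, the IRF-type from -82 to -73. The 300 bases of Cyba held none of the 5, and the C/EBP-type was in none of the 3. A match describes the letters alone, and binding was not measured here.

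The transcription factors known for these genes moved in both directions. Of 15 tested of 16 listed, 5 rose and 4 fell relative to DCs in 6G- BM-MDSC, and 4 rose and 6 fell in MDSC (conv.), where 32.8% and 29.2% of all genes passed in either direction. The median difference was -0.16 in 6G- BM-MDSC and 0.01 in MDSC (conv.). Cebpe, needed for the last steps of neutrophil maturation, was higher by 2.24 (SE 0.13) in 6G- BM-MDSC and 2.60 (SE 0.13) in MDSC (conv.), and Cebpd by 0.86 and 0.74. Satb1, a chromatin organiser, was higher by 1.59 and 1.80. Irf8, which directs monocytes and dendritic cells and acts on Cybb with PU.1, was at -1.26 (SE 0.14) and -1.45 (SE 0.14), and the coactivator Crebbp was at -1.01 and -0.99, both lower than in DCs in each comparison.

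Among enzymes that supply NADPH, the electron source of the oxidase, more were higher in MDSCs than lower. Of 13 genes, 7 were higher and 1 lower than in DCs in 6G- BM-MDSC, and 7 were higher and 2 lower in MDSC (conv.), where 15.0% and 13.4% of all genes were higher and 17.8% and 15.8% lower. The median difference over the 13 genes was 0.50 in 6G- BM-MDSC and 0.52 in MDSC (conv.). Hk3, a hexokinase of myeloid cells, stood at 5.62 and 5.65 in 6G- BM-MDSC, 5.49 and 5.76 in MDSC (conv.), and 4.05 and 3.89 in DCs. Nadk, which makes NADP from NAD, was higher by 1.19 (SE 0.09) in 6G- BM-MDSC and 1.05 (SE 0.09) in MDSC (conv.). G6pdx, which opens the pentose phosphate pathway and makes its NADPH, was higher by 0.69 (SE 0.08) and 0.65 (SE 0.08). Pgd, the other NADPH-making enzyme of that pathway, was higher by 0.87 and 0.70, and H6pd, the counterpart of G6pdx in the endoplasmic reticulum, by 0.78 and 0.82.

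Of 41 genes that regulate the oxidase or its GTPases, 13 rose and 7 fell relative to DCs in 6G- BM-MDSC, and 11 rose and 7 fell in MDSC (conv.), where 15.0% and 13.4% of all genes were higher and 17.8% and 15.8% lower. The median difference was 0.15 in 6G- BM-MDSC and 0.13 in MDSC (conv.). Rasgrp2, an exchange factor that activates Rap1, stood at 2.20 and 2.23 in 6G- BM-MDSC, 2.26 and 2.35 in MDSC (conv.), and -0.66 and -0.72 in DCs, 7.5-fold and 7.96-fold higher than in DCs. Rap1gap2, which switches Rap1 off, was higher by 1.89 (SE 0.08) in 6G- BM-MDSC and 2.15 (SE 0.08) in MDSC (conv.). Bcr, which switches Rac off, was higher by 1.69 and 2.09, and Dock5, which activates Rac, by 1.17 and 1.10. Rac3, the remaining Rac gene, was lower than in DCs, at -1.08 (SE 0.17) in 6G- BM-MDSC and -1.41 (SE 0.17) in MDSC (conv.).

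Of 14 enzymes that convert superoxide and peroxide, 6 rose and 0 fell relative to DCs in 6G- BM-MDSC, and 5 rose and 1 fell in MDSC (conv.), where 32.8% and 29.2% of all genes passed in either direction. The median difference was 0.23 in 6G- BM-MDSC and 0.13 in MDSC (conv.). Mpo, the myeloperoxidase of neutrophil granules that makes hypochlorous acid, was higher by 4.28 (SE 0.09) in 6G- BM-MDSC and 4.62 (SE 0.09) in MDSC (conv.), and Epx, the eosinophil peroxidase, by 2.33 (SE 0.52) and 2.38 (SE 0.52). Sod2, the superoxide dismutase of mitochondria, was higher by 1.32 (SE 0.12) and 0.94 (SE 0.12). Prdx5, a peroxiredoxin, was higher by 0.72 and 0.60, and Txnrd1, a thioredoxin reductase, by 0.69 and 0.47. Of 9 genes of other NADPH oxidases, 5 were tested, namely Noxo1, Nox4, Noxa1, Nox1 and Duox2, and all 5 stood below 0. Of these, 0 passed in any comparison, with 0 in 6G- BM-MDSC and 1 in MDSC (conv.) at an unadjusted p under 0.05 against DCs, where 46.0% and 42.4% of all genes had such a p. Between 6G- BM-MDSC and MDSC (conv.), 0 genes of any of these lists passed.

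**Figure D4:**
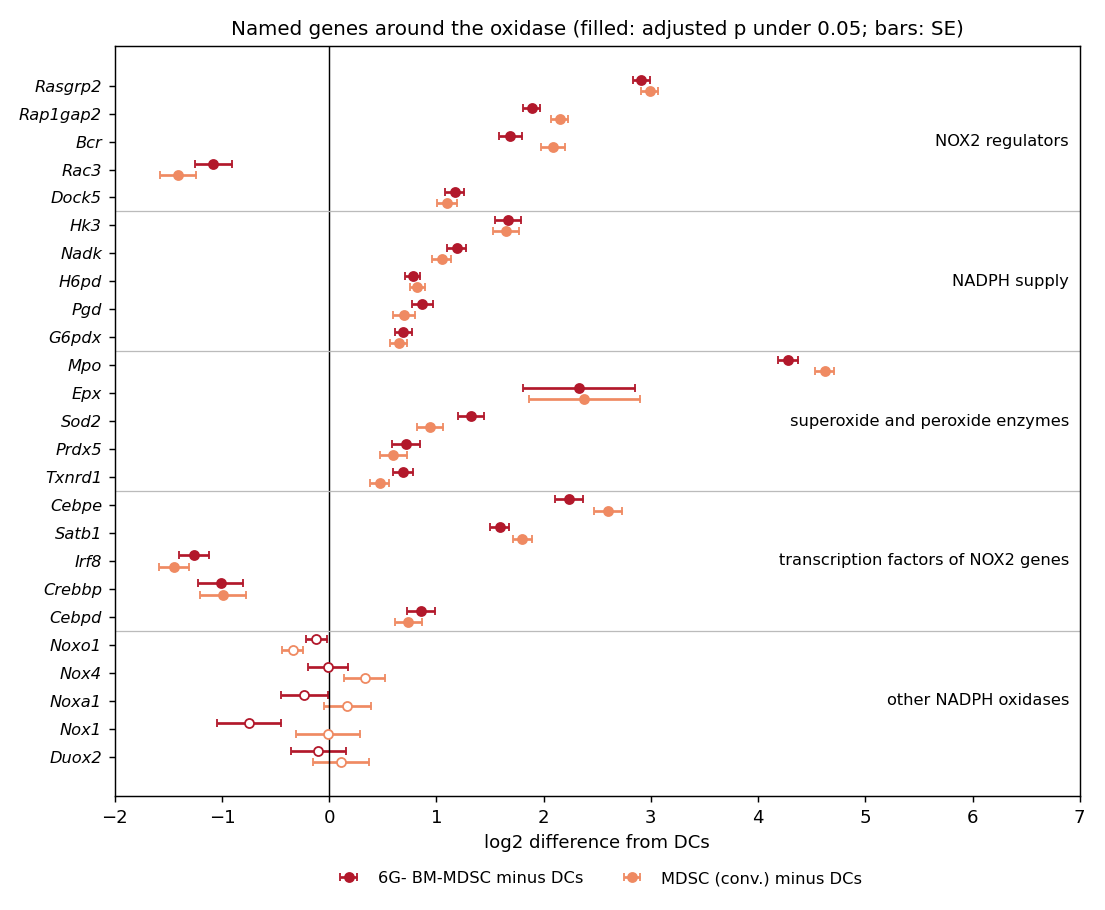
Log2 difference from DCs (x axis) for genes around the oxidase (rows, grouped by list), with 6G- BM-MDSC in red above MDSC (conv.) in orange; filled points have an adjusted p under 0.05 and bars are the SE. Mpo lies farthest right at 4.28 and 4.62, Rac3, Irf8 and Crebbp lie left of 0 in both comparisons, and the other NADPH oxidases hold only open points.

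Markers of other cell types differed from DCs too, some lists mostly higher and others mostly lower. Over 13 neutrophil markers, the summed level, in units of each array's 75th percentile, was 944 to 1050 in 6G- BM-MDSC, 1140 to 1150 in MDSC (conv.), and 178 to 190 in DCs, and 12 of 13 were higher than in DCs in both comparisons. Over all genes, 15.0% were higher and 17.8% lower in 6G- BM-MDSC, and 13.4% higher and 15.8% lower in MDSC (conv.). Relative to DCs, Retnlg, Mmp9 and Cd177 were 64.6-fold, 41.0-fold and 25.2-fold higher in 6G- BM-MDSC and 81.2-fold, 31.9-fold and 25.5-fold higher in MDSC (conv.). Ly6g, which encodes the antigen used for the depletion, stood at 1.71 and 1.86 in 6G- BM-MDSC, 1.95 and 1.96 in MDSC (conv.), and -1.94 and -2.19 in DCs. Over 12 dendritic cell markers the sum was 897 to 968 in 6G- BM-MDSC, 935 to 949 in MDSC (conv.), and 1600 to 1640 in DCs. Of these markers 11 were lower than in DCs in each comparison, such as Ciita, Zbtb46 and H2-Aa, at -2.14, -1.29 and -1.30 in 6G- BM-MDSC and -1.63, -1.45 and -1.10 in MDSC (conv.). Flt3 went the other way, by 0.50 (adjusted p = 0.0155) in 6G- BM-MDSC and by 0.20 (adjusted p = 0.164) in MDSC (conv.), where it did not pass.

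Of 6 monocyte markers, 2 were higher and 1 lower than in DCs in 6G- BM-MDSC, and 1 was higher and 1 lower in MDSC (conv.). In these comparisons, 15.0% and 13.4% of all genes were higher and 17.8% and 15.8% lower. The sum of the 6 monocyte markers was 455 to 495 in 6G- BM-MDSC, 464 to 476 in MDSC (conv.), and 297 to 322 in DCs. Without Ly6c2, a choice made after the values were seen, both MDSC groups were below DCs, with 243 to 246 in 6G- BM-MDSC, 217 to 225 in MDSC (conv.), and 270 to 292 in DCs. Relative to DCs, Ly6c2 was 8.16-fold higher in 6G- BM-MDSC and 8.85-fold higher in MDSC (conv.), and Cx3cr1 differed by 2.07 (adjusted p = 0.0129) and 0.69 (adjusted p = 0.197). Csf1r differed from DCs by -0.16 (adjusted p = 0.161) in 6G- BM-MDSC and -0.48 (adjusted p = 0.0119) in MDSC (conv.), and Ms4a4c by -0.30 (adjusted p = 0.0432) and -0.29 (adjusted p = 0.0512). Over 9 macrophage markers, led by C1qa, C1qb and C1qc, the sum was 104 to 109 in 6G- BM-MDSC, 103 to 110 in MDSC (conv.), and 164 to 183 in DCs. Of the 9, 6 were lower than in DCs in each comparison and 1, Vcam1, was higher, by 1.74 in 6G- BM-MDSC and 1.80 in MDSC (conv.). The shares of all genes given for the monocyte markers apply here too. Basophil and mast cell markers, with Mcpt8, Prss34 and Ms4a2, summed to 72.3 to 75.3 in 6G- BM-MDSC, 75.7 to 76.6 in MDSC (conv.), and 10.4 to 13.5 in DCs. Eosinophil markers, with Epx, Ear6 and Prg2, summed to 105 to 117, 114 to 127 and 21.5 to 52.3 in the same order of groups. The sums of T and NK cell markers such as Nkg7 and Cd3d (5.17 to 7.02) and of the erythroid markers Hba-a1 and Slc4a1 (0.683 to 1.36) were low in the MDSC groups, and lower still in DCs. Cd3g, of the T and NK cell list, went the other way, at -1.58 (adjusted p = 0.0162) in 6G- BM-MDSC and -1.32 (adjusted p = 0.0285) in MDSC (conv.) relative to DCs. Of the 5 erythroid markers listed, 2 were tested. Slc4a1 was dim and did not share the direction of the erythroid sum. Its difference from DCs was -0.07 (adjusted p = 0.83) in 6G- BM-MDSC and -0.19 (adjusted p = 0.564) in MDSC (conv.). Among B cell markers, Ms4a1 and Cd79b were 11.4-fold and 10.8-fold higher than in DCs in 6G- BM-MDSC and 13.2-fold and 11.6-fold higher in MDSC (conv.). Other markers of that list did not pass. Cd79a differed from DCs by 0.43 (adjusted p = 0.169) in 6G- BM-MDSC and 0.56 (adjusted p = 0.103) in MDSC (conv.). Pax5 lay below DCs, at -0.44 (adjusted p = 0.111) and -0.09 (adjusted p = 0.724), and both genes were dim. The part of these cells in the subunit levels was not tested. The cultures were measured as a whole, so fewer cells of a type and less RNA per cell cannot be told apart.

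To describe the patterns further, the genes nearest to each called subunit were looked up among 13014 genes, by the root mean square distance over the 6 arrays after centring. Nearest to Cybb were Mcu, the pore of the mitochondrial calcium uniporter, and Phgdh, which opens serine synthesis, at distances of 0.056 and 0.059 log2 units. Their differences from DCs were 1.30 and 1.38 in 6G- BM-MDSC and 1.40 and 1.47 in MDSC (conv.). Nearest were Slc37a1 and Tspan4 to Cyba (0.023 and 0.026), Phf1 and Amdhd2 to Ncf1 (0.023 and 0.025), Ocstamp and Camk2d to Ncf4 (0.079 and 0.080), and Plk4 and Ermp1 to Rac2 (0.024 and 0.024). Among the subunits themselves, Cyba and Rac2 and also Ncf1 and Rac2 were closest at 0.09, and Cybb and Rac1 were farthest apart at 0.68.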

How the data were processed

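RNA of 6 arrays (Agilent SurePrint mouse, 1 colour) was analysed, 2 per group. The authors' image software, Agilent Feature Extraction (version 10.5.1.1 in the submitters' notes, 10.7.3.1 in the file headers), subtracted background and trends. The deposited values are these processed intensities, linear and unscaled between arrays, and a second deposited table repeats them after rounding. Marked spots (103 to 146 per array) were left out, spots of a probe were averaged, log2 was taken and the array's 75th percentile (560.2 to 633.3) subtracted. A probe had to be well above background on both arrays in 1 group or more, and the brightest probe stood for its gene. Groups were compared with limma 3.58.1 in R 4.3.3 (3 residual degrees of freedom, prior 1.96), without a replicate block. With 2 against 2 arrays an exact permutation test cannot go below p = 0.333, so none was run. The scripts were tested on simulated data. Motifs were searched with Python 3 and pandas.

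The members, lists and tests were chosen with earlier results of these data known. All members and probes are named. Of each pathway list up to 5 genes, and of each marker list up to 3, are named by the largest mean absolute difference from DCs among genes past the test, filled up by signal, with the 2 genes nearest in pattern to each called member. Ly6g, Cybc1, Nrros, Spi1, Ms4a4c, Vcam1, Flt3, Cd79a and Pax5 are named besides. Some genes of the lists are not reported here. Alternatives were other background corrections, scalings, filters, probe rules, spot rules, fits and tests, and leaving out each array.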

Additional observations from a re-analysis of the deposited data

How the results depend on the processing

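The limits are those of 2 arrays per group on 1 slide, of array row, time, dose and dish surface running together with the difference from DCs, and of probes whose signal above background sets their precision. Of 399 values of single subunits under an alternative, 356 kept their direction and side of the threshold, 26 lost the call, 1 gained it and 16 changed sign, all 16 among differences that did not pass. Rap1a passed in MDSC (conv.) against DCs when a gene was the average of its probes (0.28, adjusted p = 0.0466). All 10 calls against DCs were lost with the t-test after Benjamini-Hochberg adjustment (adjusted p = 0.0545 to 0.116), which called 0 subunits in either comparison, where 6 in 6G- BM-MDSC and 5 in MDSC (conv.) were below the threshold before it. On the pathway lists, that test called 1 gene in 6G- BM-MDSC and 0 in MDSC (conv.), against 43 in each comparison in limma. Over all genes it called 41 higher and 25 lower in 6G- BM-MDSC and 4 higher and 3 lower in MDSC (conv.) against DCs, where limma called 3282 higher and 3889 lower in 6G- BM-MDSC and 2925 higher and 3457 lower in MDSC (conv.). With no filter on dim probes, 3198 genes were higher and 8752 lower in 6G- BM-MDSC than in DCs (median of all genes -0.214), and 2916 were higher and 8700 lower in MDSC (conv.) (median -0.194). The cause was not tested.

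When the probes of a gene were averaged, 6G- BM-MDSC differed from MDSC (conv.) by 0.05 for Cybb, -0.05 for Ncf1 and -0.03 for Rap1a, and after quantile normalization by -0.001 for Rac2. With quantile normalization, Rac1 differed from DCs by 0.06 in 6G- BM-MDSC. With normexp background correction, the log2 ratio of Cybb to Cyba relative to DCs was 0.81 in 6G- BM-MDSC and 0.92 in MDSC (conv.). The replicate numbers were not taken as pairs, since same-numbered arrays deviated together only weakly (correlations of 0.11, 0.12 and 0.04). With the replicate block, 5 subunits were called in each comparison with DCs and 0 between 6G- BM-MDSC and MDSC (conv.), and no call of a subunit changed.

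With each array left out in turn, 6G- BM-MDSC minus MDSC (conv.) was -0.07 to 0.02 for Cybb, -0.04 to 0.04 for Cyba, -0.14 to 0.07 for Rac1, -0.06 to 0.06 for Rac2, -0.05 to 0.07 for Rap1a, 0.06 to 0.20 for Ncf1 and 0.12 to 0.36 for Ncf4. The difference of Rac1 from DCs was -0.13 to 0.08 in 6G- BM-MDSC and -0.01 to 0.04 in MDSC (conv.). The subunits called against DCs numbered 3 to 5 in 6G- BM-MDSC and 1 to 5 in MDSC (conv.), and the pathway genes called in MDSC (conv.) 24 to 35. In these fits the lone array of a group was assumed to vary like the others. The ratio of Cybb to Cyba relative to DCs was 0.90 to 1.07 in 6G- BM-MDSC, and that of Rac2 to Rac1 was 0.47 to 0.67 in 6G- BM-MDSC and 0.43 to 0.63 in MDSC (conv.).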

Other observations

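The genes of this paragraph were chosen after their values were seen. Cybc1, needed for a stable gp91phox protein, did not pass in either comparison with DCs. It stood at 3.33 and 3.39 in 6G- BM-MDSC, 3.29 and 3.37 in MDSC (conv.), and 3.50 and 3.48 in DCs, with a difference from DCs of -0.13 (SE 0.07, adjusted p = 0.238) in 6G- BM-MDSC and -0.16 (SE 0.07, adjusted p = 0.17) in MDSC (conv.). Nrros, whose protein lowers the amount of gp91phox, differed from DCs by 0.49 (SE 0.13, adjusted p = 0.0419) in 6G- BM-MDSC and 0.33 (SE 0.13, adjusted p = 0.116) in MDSC (conv.), while the difference between both MDSC groups did not pass (adjusted p = 0.699). Spi1, which encodes PU.1, differed from DCs by 0.42 (SE 0.10, adjusted p = 0.0309) in 6G- BM-MDSC and 0.34 (SE 0.10, adjusted p = 0.0612) in MDSC (conv.), with arrays at 1.39 and 1.55 in 6G- BM-MDSC, 1.42 and 1.35 in MDSC (conv.), and 1.12 and 0.97 in DCs.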
